A study of Danio rerio with 6 samples.

Results

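The proteasome genes of zebrafish were examined on the arrays of whole Tg (mbp:nfsB-egfp) larvae, as transcripts whose single symbol on the platform begins with psma, psmb, psmc, psmd, psme, psmf or psmg and a number. This gave 54 genes of the 19260 genes with a symbol of their own, each represented by the transcript cluster (the probe set of the array) with the highest mean over the 6 arrays. Of these, 16 encode the core particle (psma and psmb1 to psmb7) and 6 encode the immune forms (psmb8 to psmb13). By symbol, 25 were counted as regulatory caps (psmc, psmd and psme), among them the assembly chaperone genes psmd5, psmd9 and psmd10. A further 5 encode an inhibitor and assembly chaperones (psmf and psmg). The remaining 2, psmc3ip and psme3ip1, match the symbols but encode interacting proteins, not subunits.

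Metronidazole treated larvae were kept for 5 days, from 5 to 10 days post fertilization (dpf), in 5 mM metronidazole with 0.2% DMSO, and the control larvae were kept in 0.2% DMSO alone. Both groups carry the transgene, in which the promoter of mbp (myelin basic protein) drives bacterial nitroreductase and GFP, so that myelin-forming cells convert metronidazole into a toxic product. There were 3 arrays per group, each with pooled RNA of 5 whole larvae at 10 dpf. The study used 3 batches of larvae, here read from the replicate numbers. Larvae without the transgene in metronidazole are not analysed here, so any loss of the targeted cells and other effects of the drug cannot be told apart.

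The proteasome is the protease that degrades ubiquitin-tagged proteins in the cytoplasm and nucleus. Its core is a barrel of alpha and beta rings, of which the beta subunits encoded by psmb5, psmb6 and psmb7 hold the catalytic sites. A cap, the 19S regulatory particle, has a base of ATPases (psmc) that unfold the substrate and further subunits (psmd) that bind and remove ubiquitin. In vertebrate immune cells, and in other cells under interferon, the catalytic subunits are replaced by immune forms (psmb8 for psmb5, psmb9 for psmb6 and psmb10 for psmb7), and the activator PA28, built of the products of psme1 and psme2, takes the place of a 19S cap. Such immunoproteasomes make peptides that MHC class I molecules present to T cells.

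The values are log2 signals as deposited, and differences are metronidazole minus control on the log2 scale. The median signal lay between 5.10 and 5.14 on the 6 arrays, and 47 of the 54 genes lay above it on every array. Markers of the tissues of a whole larva were mostly above the median signal on every array. The counts were 12 of 12 for skeletal muscle, 7 of 7 for neurons, 7 of 8 for liver and 8 of 11 for enterocytes. They were 6 of 7 for myelinating glia, 5 of 7 for photoreceptors and only 9 of 17 for leukocytes. The markers of myelinating glia, the targeted cells, had a median difference of 0.03, with 4 of 7 positive and 3 negative. Because RNA of whole larvae was used, fewer cells of a type and less RNA per cell cannot be told apart.

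The genes of the standard proteasome had nearly the same mean signal in both groups, while part of the immune proteasome was at a lower mean signal in metronidazole treated larvae. The size of this difference depended largely on control replicate 3. Without it the log2 difference was -0.81 for psme1 and between -0.38 and -0.29 for psme2, psmb9a, psmb10 and psmb12. None of the 54 genes passed an adjusted p under 0.05 by limma over all transcript clusters (lowest adjusted p = 0.952), where the background was 0% of all genes in each direction. At an unadjusted p under 0.05, 1 gene was lower (psme1, 1.85% of the 54, background 4.27%) and 0 were higher (background 1.68%). The same single gene met the study's fold criterion of 0.5 (background 2.02%), and 0 met that of 2 (background 0.218%). For 3 genes every metronidazole array was below every control array (psme1, psmb10 and psmf1, 5.56%, background 5.73%), and for 0 the reverse held (background 5.14%). These shares were near or below those of all genes. The median difference over the 54 genes was -0.04, against 0.02 over all genes.

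**Figure D1:**
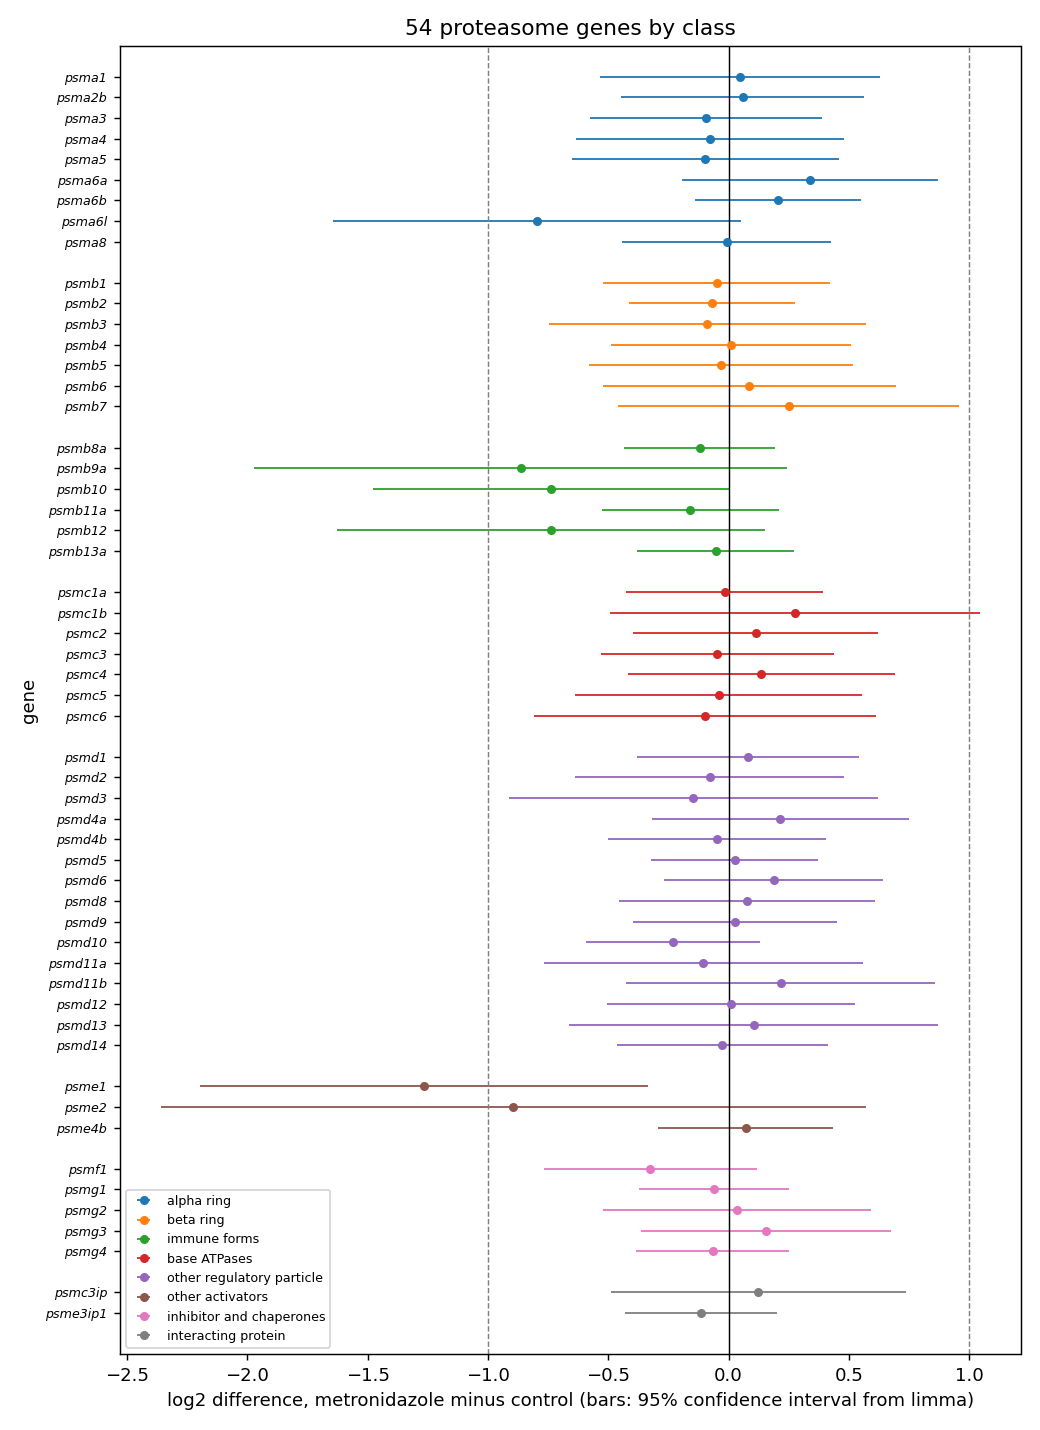
Difference in mean log2 signal, metronidazole minus control, of each of the 54 genes, grouped by class, with dashed lines at 2-fold in either direction. Points are differences and bars are 95% confidence intervals from limma; the core and 19S genes lie around 0, with psma6l at -0.80 apart from them, and psme1, psme2, psmb9a, psmb10 and psmb12 lie between -1.27 and -0.74.

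The gene psme1 (Entrez gene 30648), which encodes the alpha subunit of the PA28 activator, had the largest difference of the 54. Its log2 signals were 7.59, 7.48 and 7.80 in metronidazole treated larvae and 8.23, 8.64 and 9.81 in control larvae. The groups did not overlap, and the control arrays were spread far more widely than the metronidazole arrays. The log2 difference was -1.27 (standard error 0.39, limma adjusted p = 0.952), or 0.416 of the control level, with differences of -0.64, -1.15 and -2.01 within replicates 1, 2 and 3. The unadjusted p was 0.0150 by limma and 0.0585 by the methods' t-test. Without control replicate 3 the log2 difference was -0.81, or 0.571 of the control level, which no longer met the criterion of 0.5. The unadjusted limma p was 0.00726 in that fit, where 0 transcript clusters passed the adjusted p.

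Its partner psme2 (Entrez gene 30647), the beta subunit of PA28, had a similar mean difference but overlapping groups. Its log2 signals were 6.44, 5.31 and 6.20 in metronidazole treated larvae and 5.67, 6.87 and 8.09 in control larvae. Control replicate 1 lay below 2 of the 3 metronidazole arrays. The log2 difference was -0.90 (standard error 0.61, limma adjusted p = 0.952), with 0.77, -1.56 and -1.89 within the replicates, so that the metronidazole array was the higher one in replicate 1. Without control replicate 3 it was -0.29. A further activator gene, psme4b, encodes a form of PA200, which caps the core without ATP. It had signals of 7.47, 7.55 and 7.51 in metronidazole treated larvae and 7.22, 7.44 and 7.67 in control larvae, a log2 difference of 0.07 (standard error 0.15).

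All 6 immune forms had negative differences, with a median of -0.45, though the difference was sizeable in only 3 of them. Without control replicate 3 the median was -0.24. Those 3 shared the order of the control arrays seen in psme1, with replicate 3 the highest and replicate 1 the lowest. The gene psmb10 (Entrez gene 436816), the immune counterpart of psmb7, had log2 signals of 6.04, 6.23 and 5.91 in metronidazole treated larvae and 6.36, 6.52 and 7.52 in control larvae. The groups did not overlap, and control replicate 3 was far above its fellows. The log2 difference was -0.74 (standard error 0.31, limma adjusted p = 0.952), and it was -0.38 without control replicate 3.

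The other 2 of these genes lie beside each other. In the RefSeq order of genes on GRCz12tu, psmb13a, psmb8a, psmb12 and psmb9a follow one another next to MHC class I genes and the peptide transporter gene tap2a. The gene psmb9a (Entrez gene 30665), the immune counterpart of psmb6, had log2 signals of 4.96, 4.68 and 5.28 in metronidazole treated larvae and 5.16, 5.41 and 6.94 in control larvae. Metronidazole replicate 3 lay above control replicate 1, so the groups overlapped. The log2 difference was -0.86 (standard error 0.46), with -0.21, -0.73 and -1.66 within the replicates. Its neighbour psmb12 (Entrez gene 64279), a further beta subunit gene of this region, had log2 signals of 4.11, 4.04 and 4.28 in metronidazole treated larvae and 4.18, 4.73 and 5.73 in control larvae. The lowest control array was again replicate 1, which was just below metronidazole replicate 3. The log2 difference was -0.74 (standard error 0.37), and without control replicate 3 the differences of psmb9a and psmb12 were both -0.31.

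Among the immune forms, psmb10 lay above the array median on 6 arrays, psmb9a on 4 and psmb12 on 1. The signals of the remaining immune forms were below it on all 6 arrays. The gene psmb8a (Entrez gene 30666), the immune counterpart of psmb5, had log2 signals of 3.95, 3.77 and 3.69 in metronidazole treated larvae and 3.85, 3.94 and 3.98 in control larvae, a log2 difference of -0.12 (standard error 0.13). The gene psmb11a encodes a beta subunit that in mammals belongs to the thymus, and it stands next to psmb5 in the RefSeq order. It had a log2 difference of -0.16 (standard error 0.15), and psmb13a had -0.05 (standard error 0.14). A further transcript cluster carries the symbols psmb13a, psmb8a and tap2a together and was not assigned to any of them. For psmb8a, psmb11a and psmb13a the groups overlapped.

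**Figure D2:**
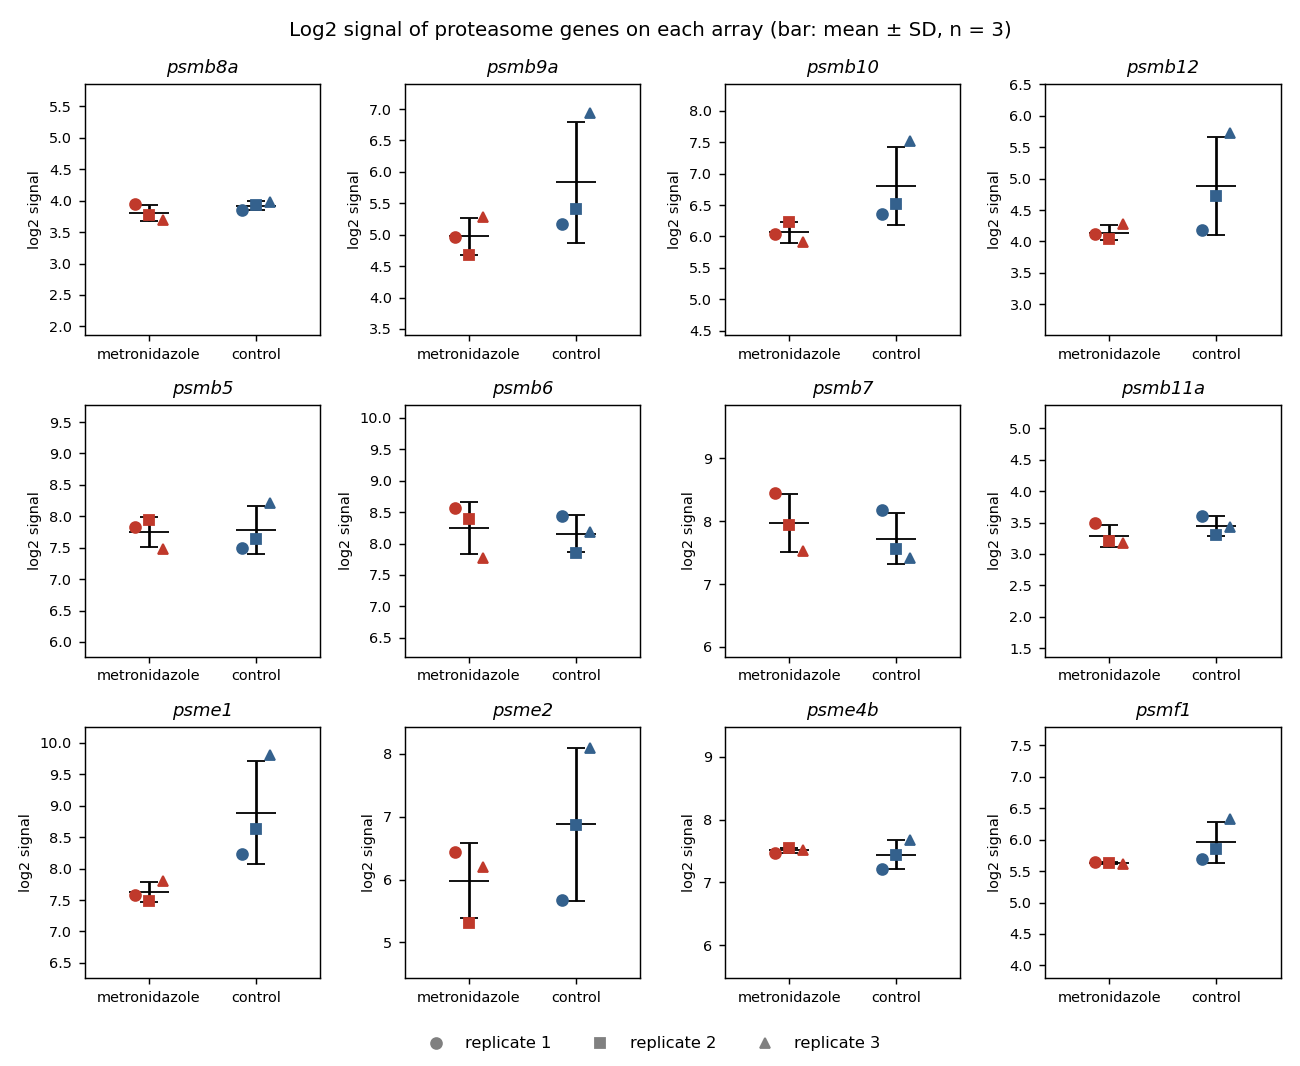
Log2 signal of 12 proteasome genes on each array, with metronidazole arrays in red and control arrays in blue; each panel spans the same range of 4 log2 units, symbols mark replicates, and bars are mean ± SD (n = 3). Control replicate 3 (triangle) is the highest point in psmb9a, psmb10, psmb12, psme1, psme2 and psmf1, and also in psmb5, psmb8a and psme4b. The groups do not overlap in psmb10, psme1 and psmf1, and they overlap in the other panels.

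The standard counterparts of the immune forms had smaller differences. The gene psmb5 had log2 signals of 7.83, 7.94 and 7.48 in metronidazole treated larvae and 7.49, 7.64 and 8.21 in control larvae, a log2 difference of -0.03 (standard error 0.23, 95% confidence interval -0.58 to 0.52). The gene psmb6 had 8.56, 8.40 and 7.77 in metronidazole treated larvae and 8.44, 7.84 and 8.19 in control larvae, a log2 difference of 0.09 (standard error 0.25, 95% confidence interval -0.52 to 0.69). The gene psmb7 had 8.45, 7.94 and 7.52 in metronidazole treated larvae and 8.18, 7.57 and 7.42 in control larvae, a log2 difference of 0.25 (standard error 0.30, 95% confidence interval -0.46 to 0.96). The groups overlapped in all 3 genes.

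To compare each immune form with the subunit it replaces, the difference of their log2 signals was taken within each array. For psmb10 minus psmb7 this was -1.91 ± 0.44 in metronidazole treated larvae and -0.92 ± 0.97 in control larvae (SD, n = 3 each), a difference of -0.99, with -0.59, -0.66 and -1.71 within the replicates (two-sided exact permutation test, p = 0.3). For psmb9a minus psmb6 it was -3.27 ± 0.68 in metronidazole treated larvae and -2.32 ± 1.02 in control larvae, a difference of -0.95, with -0.33, -1.28 and -1.24 within the replicates (exact permutation p = 0.2). For psmb8a minus psmb5 the groups differed by -0.09, with -0.24, -0.47 and 0.43 within the replicates (exact permutation p = 0.6). After adjustment over the 3 pairs the exact p-values were 0.45, 0.45 and 0.6, and 3 arrays against 3 cannot go below 0.1. The differences of the pairs with psmb10 and psmb9a were negative within each replicate, but none passed the threshold. They depended on single control arrays: without control replicate 3 they were -0.48 for psmb10 minus psmb7 and -0.42 for psmb9a minus psmb6, and without control replicate 1 they were -1.44 and -1.43.

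Among the alpha ring, which gates the entry to the core, 8 of the 9 genes had differences between -0.10 and 0.34, and the groups overlapped in every one. The largest difference upwards among the 54 genes was that of psma6a, with log2 signals of 7.50, 7.19 and 6.96 in metronidazole treated larvae and 7.04, 6.49 and 7.10 in control larvae (log2 difference 0.34, standard error 0.22). Its paralog psma6b had a log2 difference of 0.21 (standard error 0.14) and a narrow range of 7.36 to 7.46 in metronidazole treated larvae, against 7.07 to 7.42 in control larvae. A further gene of this family, psma6l, stood apart.

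The gene psma6l had log2 signals of 7.14, 6.19 and 6.67 in metronidazole treated larvae and 6.94, 7.35 and 8.10 in control larvae, a log2 difference of -0.80 (standard error 0.36, limma adjusted p = 0.952). Without control replicate 3 it was -0.48. The value also depended on the transcript cluster. The other two clusters of this symbol, both dimmer, had log2 differences of 0.12 each (standard errors 0.17 and 0.18), and the mean of the 3 clusters gave -0.19.

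The beta ring genes psmb1 to psmb7 lay between -0.09 and 0.25. Among them psmb2 had log2 signals of 10.31, 10.05 and 9.93 in metronidazole treated larvae and 10.12, 10.22 and 10.15 in control larvae (log2 difference -0.07, standard error 0.14, 95% confidence interval -0.41 to 0.28).

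The ATPases of the 19S base, 7 genes, lay between -0.10 and 0.27. The largest was psmc1b, with log2 signals of 8.03, 7.33 and 6.86 in metronidazole treated larvae and 7.49, 6.84 and 7.07 in control larvae (log2 difference 0.27, standard error 0.32). Its paralog psmc1a had a log2 difference of -0.02 (standard error 0.17). The genes psmc4 and psmc2 had log2 differences of 0.14 and 0.11 (standard errors 0.23 and 0.21), with overlapping groups.

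The 15 genes of the psmd class lay between -0.23 and 0.22. They include the ubiquitin receptor gene psmd4a, with a log2 difference of 0.21 (standard error 0.22), and psmd14, whose product cuts ubiquitin from the substrate, with -0.03 (standard error 0.18). The scaffold gene psmd2 had the highest signals of the class, 11.25, 10.99 and 10.52 in metronidazole treated larvae and 11.29, 10.76 and 10.96 in control larvae, and a log2 difference of -0.08 (standard error 0.23). The lid gene psmd6 had a log2 difference of 0.19 (standard error 0.19). Products of psmd5, psmd9 and psmd10 are chaperones that help to build the base and leave it afterwards. Of these, psmd10 was the dimmest of the class and had the lowest p, with log2 signals of 4.30, 4.51 and 4.38 in metronidazole treated larvae and 4.75, 4.39 and 4.74 in control larvae (log2 difference -0.23, standard error 0.15). Control replicate 2 lay among the metronidazole arrays.

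Taking the core and 19S genes together, 38 in all, 19 had positive and 19 negative differences, with a median of 0.001. For 36 of them the 95% confidence interval of the difference lay within 2-fold in both directions. The exceptions were psma6l, whose interval reached down to -1.65, and psmc1b, whose interval reached up to 1.04. The median standard error of the 38 genes was 0.22. The 95% confidence intervals reached further than 1 standard error, as in psmb5 (-0.58 to 0.52). Differences of up to about the reach of such an interval could not be told from 0 with 3 arrays per group.

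Assembly of the core needs the chaperones encoded by psmg1 to psmg4, and psmf1 encodes PI31, a protein that binds the core and inhibits it in vitro. The 4 chaperone genes lay between -0.07 and 0.16, of which psmg3 had the largest difference (0.16, standard error 0.22) and psmg4 -0.07 (standard error 0.13). The gene psmf1 had log2 signals of 5.65, 5.63 and 5.62 in metronidazole treated larvae and 5.69, 5.85 and 6.33 in control larvae. The metronidazole arrays were nearly identical and all lay below the control arrays, by a small margin for control replicate 1. The log2 difference was -0.33 (standard error 0.19, limma adjusted p = 0.952), and it was -0.14 without control replicate 3. The interacting protein genes psmc3ip and psme3ip1 had log2 differences of 0.12 (standard error 0.26) and -0.11 (standard error 0.13).

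Although their group means were alike, the core and 19S genes varied together from array to array. Metronidazole replicate 1 was the highest of the 6 arrays for 23 of the 38 genes (60.5%, against 23.3% of all genes), and metronidazole replicate 3 was the lowest for 22 of them (57.9%, against 10.6% of all genes). The median deviation from each gene's mean was 0.29, 0.08 and -0.32 in metronidazole replicates 1, 2 and 3, and 0.06, -0.20 and 0.15 in the control replicates. The metronidazole arrays thus lay on both sides of the control arrays. The median difference of the core genes was -0.13 without metronidazole replicate 1 and 0.13 without metronidazole replicate 3.

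Metronidazole replicate 1 also stood apart in markers of some tissues. Its median deviation was -1.59 for enterocyte markers, -0.97 for liver markers and -1.17 for photoreceptor markers. In control replicate 1 the values were 0.06, -0.41 and -0.62 in the same order, so photoreceptor markers were low in both replicate 1 arrays. Over all arrays the enterocyte markers had a median difference of -1.17, with 10 of 11 negative, 3 lower at an unadjusted p under 0.05 (background 4.27%) and 6 past the criterion of 0.5 (background 2.02%). The liver markers had a median difference of -0.46, with 7 of 8 negative. In control replicate 3, where the immune forms were highest, the median deviation was 0.80 for enterocyte markers and 0.92 for liver markers. In control replicate 2 it was 0.99 for enterocyte markers, 0.20 for liver markers and 0.04 for the immune forms. The part of these tissues in the values of the proteasome genes was not tested.

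This variation gave the same-numbered arrays differences of opposite sign. In replicate 1, 34 of the 38 genes were higher in the metronidazole array (89.5%, against 46.0% of all genes), with a median difference of 0.24. In replicate 2, 32 of the 38 were higher (84.2%, against 53.9%), with a median of 0.26. In replicate 3, 36 of the 38 were lower (94.7%, against 46.7%), with a median of -0.43. The 2 genes higher in replicate 3 were psma6b and psmb7. In psmc6, for example, the differences were 0.12, 0.54 and -0.96, and in psmd13, a lid gene, they were 0.23, 0.51 and -0.43.

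**Figure D3:**
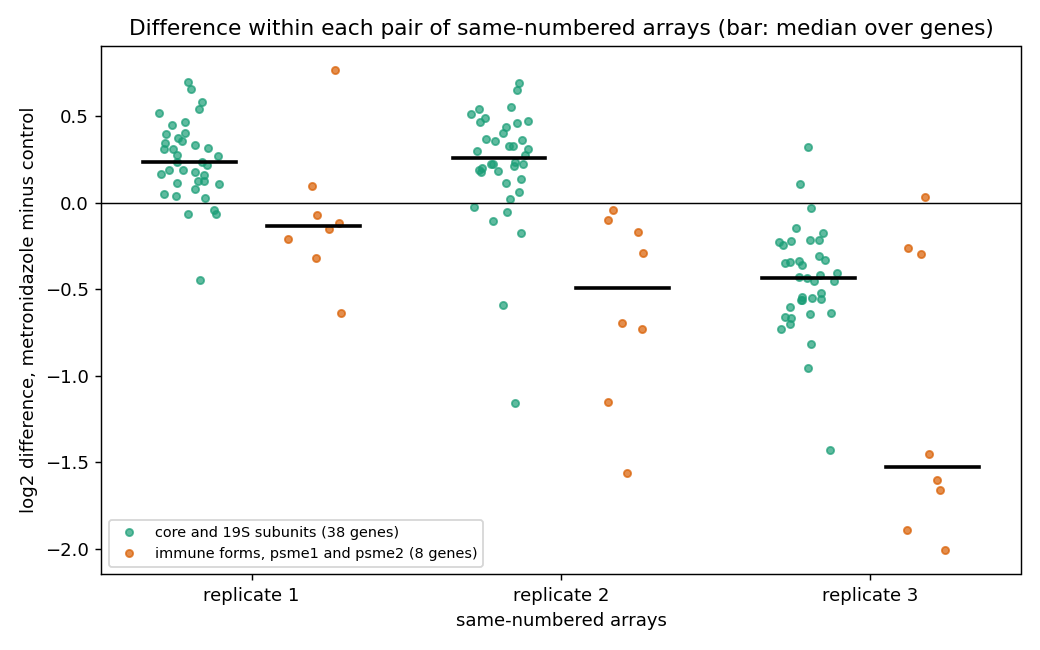
Difference in log2 signal between the metronidazole and the control array of the same replicate number, with 1 point per gene and the median as a bar. The medians of the 38 core and 19S genes are 0.24, 0.26 and -0.43 in replicates 1 to 3. Those of the 6 immune forms with psme1 and psme2, grouped after their values were seen, are -0.14, -0.49 and -1.53. For the 6 immune forms alone, not drawn, they are -0.14, -0.23 and -0.87.

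The immune forms with psme1 and psme2, 8 genes grouped after their values were seen, followed another order of arrays. Control replicate 3 was the highest array for 6 of the 8 genes (19.2% of all genes) and metronidazole replicate 2 the lowest for 5 (13.4% of all genes). Among the 6 immune forms alone, control replicate 3 was the highest for 4, and metronidazole replicates 2 and 3 were the lowest for 3 each. The median deviation of the 8 genes was -0.19, -0.34 and -0.21 in the metronidazole replicates and -0.05, 0.08 and 1.15 in the control replicates. With the replicate number as a block, 3 of the 54 genes in place of 1 had an unadjusted p under 0.05 by limma, all lower, namely psme1, psmb9a and psmb12. With the block the background was also higher, at 6.9% of all genes lower and 2.38% higher, so that the 5.56% of the proteasome genes lay below it. Their limma adjusted p-values with the block were 0.532, 0.671 and 0.703.

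Other genes of MHC class I antigen processing, from a list of peptide transporters, trimming peptidases, chaperones and MHC class I chains, shared part of this order. Of 15 measured genes 13 had negative differences, with a median of -0.38. The 2 positive genes were tap2a (0.09), below the array median on every array, and the MHC class I gene mhc1zba. For mhc1zba the log2 difference was 0.76 (standard error 1.04), with -0.50, -0.14 and 2.94 within the replicates. At an unadjusted p under 0.05, 2 were lower (background 4.27%) and 0 higher (background 1.68%), and 0 passed the adjusted p. The gene b2m encodes a light chain of MHC class I. Its log2 signals were 5.85, 5.45 and 5.76 in metronidazole treated larvae and 5.98, 7.06 and 8.11 in control larvae. The log2 difference was -1.36 (standard error 0.50). As in psme1, control replicate 3 was the highest array. In b2m, control replicate 1 lay close to the metronidazole arrays. The gene b2ml of the same list was brighter, with a mean of 10.66 over the arrays against 6.37 for b2m. For b2ml the log2 difference was -0.22 (standard error 0.19), and the groups overlapped. The peptidase gene erap2 had a log2 difference of -0.49 (standard error 0.20). The median deviation of the list was -0.02, -0.45 and -0.20 in the metronidazole replicates and -0.12, 0.00 and 0.64 in the control replicates.

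Of 10 measured genes of interferon signalling, which in mammals induces the immune forms, 9 had negative differences, with a median of -0.24. By limma 0 were higher (background 1.68%) and 0 lower (background 4.27%) at an unadjusted p under 0.05. Control replicate 3 was the highest array for 5 of the 10. In replicate 1 the median difference was 0.40, with 6 of the 10 higher in the metronidazole array. The transcription factor gene irf1a had log2 signals of 5.34, 5.11 and 6.16 in metronidazole treated larvae and 5.62, 5.71 and 6.81 in control larvae (log2 difference -0.51, standard error 0.40). The groups overlapped, and control replicate 3 was again the highest array. The feedback inhibitor gene socs1b had a log2 difference of -0.28 (standard error 0.19). The interferon gene ifng1 had signals of 3.50 to 3.60 in metronidazole treated larvae and 3.55 to 3.63 in control larvae, below the array median throughout.

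Leukocytes express the immune forms constitutively in mammals, and some of their markers had negative differences as well. Of 17 measured leukocyte markers 11 had negative differences, with a median of -0.11, and 4 were lower (background 4.27%) and 0 higher (background 1.68%) at an unadjusted p under 0.05. The summed linear signal of the 17 markers ranged from 954 to 1646 in metronidazole treated larvae and from 1221 to 1692 in control larvae. The highest metronidazole sum was that of replicate 1, where the marker mpx had its highest signal. For mpx the log2 signals were 9.49, 6.15 and 7.65 in metronidazole treated larvae and 7.68, 7.29 and 7.22 in control larvae. The macrophage gene mpeg1.1 had log2 signals of 5.12, 5.32 and 5.51 in metronidazole treated larvae and 5.99, 6.76 and 7.42 in control larvae (log2 difference -1.40, standard error 0.35), and laptm5, a lysosomal membrane gene of blood cells, had a log2 difference of -0.73 (standard error 0.23). The T cell gene lck had -0.18. The 6 positive markers were mpx (0.36), cd8a and rag1 (0.13 each), rag2 (0.07), cd79b (0.01) and zap70 (0.0009). Signals of the B cell gene cd79b and of cd8a, rag2 and zap70 were below the array median on every array. The leukocyte markers' part in the values of the immune forms was not tested.

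**Figure D4:**
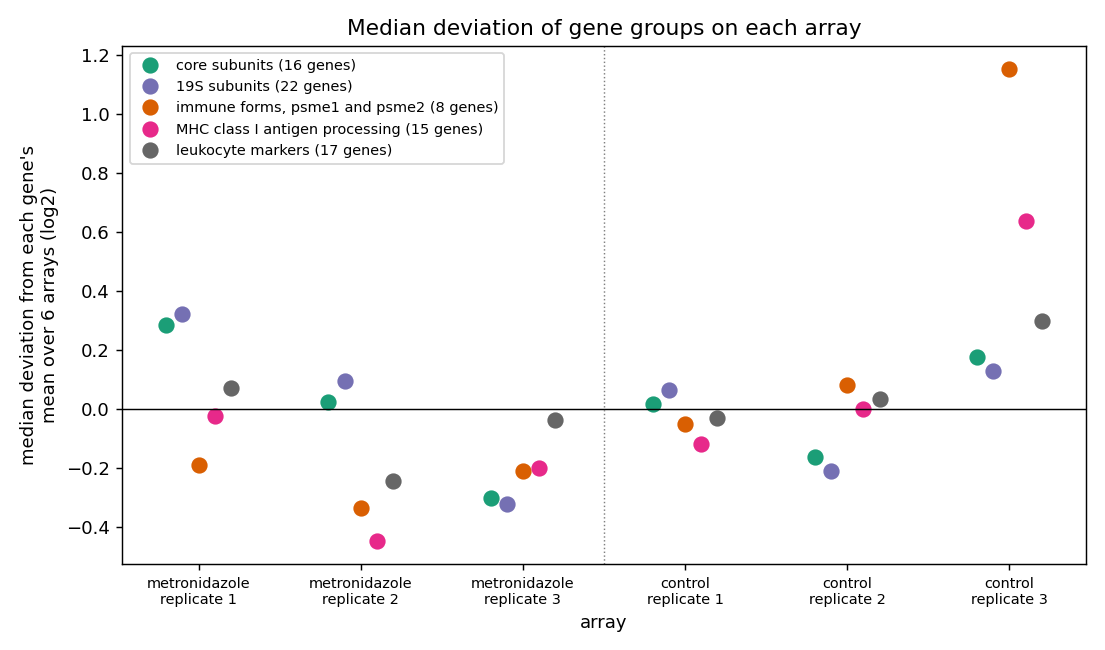
Median deviation of each gene group from the genes' means over the 6 arrays, in log2 units, with metronidazole arrays on the left and control arrays on the right. Core and 19S genes are highest in metronidazole replicate 1 (0.29 and 0.32) and lowest in metronidazole replicate 3 (-0.30 and -0.32). The immune forms with psme1 and psme2, grouped after their values were seen, reach 1.15 in control replicate 3. The 6 immune forms alone, not drawn, reach 0.60 there.

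The genes that work with the standard proteasome also had similar means in both groups. Measured were 25 genes of ubiquitin supply, ubiquitin shuttles and receptors, unfolding by p97 and assembly or transcription of the proteasome. Of these, 0 were higher (background 1.68%) and 0 lower (background 4.27%) at an unadjusted p under 0.05. With shares this low over all genes, 0 of 25 says little about the means. The medians of these 4 lists were 0.12, 0.05, 0.12 and 0.04. The polyubiquitin gene ubb had log2 signals of 11.84, 10.26 and 10.33 in metronidazole treated larvae and 10.78, 9.96 and 10.72 in control larvae (log2 difference 0.32, standard error 0.46). Its highest value was in metronidazole replicate 1, the array in which most core and 19S genes were highest. The shuttle gene rad23ab had a log2 difference of 0.36 (standard error 0.27), the p97 cofactor gene ufd1l 0.21 (standard error 0.25) and ngly1, an enzyme that in mammals activates the transcription factor of proteasome genes, -0.23 (standard error 0.14).

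The zebrafish homologs of that factor, nfe2l1a and nfe2l1b, had log2 differences of 0.20 (standard error 0.39) and 0.19 (standard error 0.27). In nfe2l1a the signals were 8.91, 7.49 and 7.79 in metronidazole treated larvae and 7.98, 7.46 and 8.14 in control larvae. The single high array was again metronidazole replicate 1. A list of targets and regulators of the related factor Nrf2 had a median of 0.05, with 12 of 20 genes positive and 8 negative. At an unadjusted p under 0.05, 0 of its genes were lower (background 4.27%) and 3 were higher (background 1.68%). These were prdx1 and gsr, which encode antioxidant enzymes, and keap1b, whose product represses Nrf2. Their log2 differences were 1.58, 0.80 and 0.71 (standard errors 0.38, 0.18 and 0.23, limma adjusted p = 0.952 each), and their groups did not overlap. Of the list, only prdx1 met the fold criterion of 2 (background 0.218%). A test of the difference between the lists was not made.

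The lower values of replicate 3 were shared by some gene lists and not by others. There, 36 of 38 core and 19S genes were lower in the metronidazole array, as were 7 of 8 genes of proteasome assembly and transcription, 5 of 6 of ubiquitin shuttles and receptors, 5 of 7 of unfolding by p97 and 3 of 4 of ubiquitin supply. Lists of other function were lower there too, with 14 of 15 genes of MHC class I antigen processing, 10 of 11 enterocyte markers and 7 of 8 liver markers. Among other large complexes the counts were 1 of 8 for the CCT chaperonin, which folds actin and tubulin, 1 of 14 for the translation factor eIF3 and 3 of 8 for the COP9 signalosome, a relative of the 19S lid. The median differences over all arrays were 0.17, 0.13 and 0.03 for these complexes. Positive differences were found in 8 of 8, 14 of 14 and 5 of 8 genes (53.5% of all genes). In 3 of the 8 CCT genes every metronidazole array was above every control array (background 5.14%), and in 0 of the eIF3 and COP9 genes. Of the 3 complexes, 0 genes were higher (background 1.68%) and 0 lower (background 4.27%) at an unadjusted p under 0.05. These values are descriptions, and the difference between the lists was not tested.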

How the data were processed

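RNA of 6 pools of whole larvae was hybridized to Affymetrix GeneChip Zeb Gene 1.0 ST arrays. The deposited values are log2 signals of 75212 transcript clusters on each array, made by the authors and on nearly the same scale. The submitters' processing notes name MAS5 without its role. Normalization and background correction are not given in the sources used here, so the compression of dim signals is unknown. Precision is limited by the 6 arrays. Symbols came from the platform's table, and all 54 members matched a RefSeq gene of GRCz12tu. A further 4 transcript clusters join a proteasome symbol with other symbols and were not used, and psma2a, psmb11b, psmd7, psme3 and psme4a are not analysed here.

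The groups were tested in limma (version 3.58.1, R 4.3.3) with lmFit and eBayes, two-sided, on 4 residual and 2.69 prior degrees of freedom. P-values were adjusted after Benjamini and Hochberg over the whole table, at 0.05. Pairs of genes were compared by exact permutation tests in scipy 1.17.1. Percentages for all genes use 1 transcript cluster for each of 19260 genes. The limma step was tested on simulated data. Alternatives covered normalization, array weights, the variance prior, a filter on dim signals, the transcript cluster of a gene, the test, the block and each array left out. Members and lists were chosen with earlier results of these data known. Named genes were all immune forms, psmb5 to psmb7, up to 3 members of each class and up to 2 genes of each other list with the lowest p. The genes psmc1a, psmc6, psmd2, psmd13, psmd14, psmc3ip, psme3ip1, nfe2l1a, nfe2l1b, ifng1 and keap1b were chosen after their values were seen. So were b2ml, mhc1zba, tap2a, lck, cd8a, cd79b, mpx, rag1, rag2 and zap70.

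The replicate numbers were treated as the study's 3 batches. Same-numbered arrays of the groups had correlations of 0.241, 0.148 and 0.127 between their deviations from the group means, and other pairs had -0.171 to 0.051. The reported fit has no block, as the methods name an unpaired test.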

Additional observations from a re-analysis of the deposited data

How the results depend on the processing

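No gene passed the adjusted p under any alternative (lowest for a member 0.433, without control replicate 1), and with this design that says nothing about stability. Members lower at an unadjusted p under 0.05 numbered 1 as reported, but 3 with array weights, 2 with median centring, 0 by the methods' t-test, 3 with the replicate block, and 1 to 7 when an array was left out. The 7 came without control replicate 1 (psme1, psme2, psmb9a, psmb10, psmb12, psmf1 and psma6l). Members past the fold criterion ranged from 0, without control replicate 3, to 5, without control replicate 1. With an array left out, 0 to 5 members had no overlap and were higher, and 3 to 9 were lower, where fewer arrays make this easier by construction. Some directions turned: psmb13a was 0.0067 with array weights, and with an array left out the difference of psmb8a minus psmb5 ranged from -0.27 to 0.020, psmb13a from -0.11 to 0.031, psmb5 from -0.18 to 0.18, psmb6 from -0.072 to 0.32, psmb2 from -0.18 to 0.014, psmc1b from -0.038 to 0.55, psmc4 from -0.020 to 0.31, psmc2 from -0.042 to 0.30, psme4b from -0.042 to 0.19 and psmg4 from -0.11 to 0.014. The pairs with psmb9a and psmb10 ranged from -1.43 to -0.42 and from -1.44 to -0.48. The replicate block changed no other call. Quantile normalization, an intensity trend and the mean of a gene's transcript clusters left the counts as they were. With brighter transcript clusters only, 48 of the 54 members were tested. Those without a value were psmb8a, psmb11a, psmb12, psmb13a, psmd10 and psmc3ip. The median of the immune forms was then -0.80, from psmb9a and psmb10 alone, against -0.45 as reported. The cause of these changes was not tested.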
